A study of Rattus norvegicus with 48 samples.

Results

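Lungs of rats taken 28 days after a single inhalation exposure to oil vapor were compared with lungs of rats that breathed filtered air, across all genes measured. The comparison comprised 12 of the 48 lung libraries of the series, 6 from oil vapor animals and 6 from air animals, chosen by their labels. The oil vapor group breathed oil vapor particles at 300 ppm for 6 h on 1 day, and the air group breathed filtered air (0 ppm) in whole-body inhalation for the same time. All animals were male Sprague-Dawley rats of 200 to 250 g without any genetic change, housed in pairs. The animals are named by their numbers in the labels: 24, 27, 28, 29, 31 and 32 breathed oil vapor, and 17, 18, 19, 20, 22 and 23 breathed air. The labels of animal 32 disagree, since its description names the table of the repeated schedule while its title and its data column place it here, and it was used by its title. The other libraries served for reference only: lungs taken 1 day after the same single exposure, and lungs taken 28 days after 16 exposure days spread over 4 weeks, each with 6 oil vapor and 6 air animals. Each library was made from the total RNA of a piece of lung from 1 animal. Which lobe was taken, and whether the lungs were cleared of blood, was not given in the sources used here.

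The lung holds an alveolar epithelium for gas exchange, a ciliated and secretory airway epithelium that clears inhaled particles, a dense capillary bed, and resident macrophages. Inhaled hydrocarbons are handled by xenobiotic enzymes of club and alveolar type 2 cells and can, in general, call forth inflammatory, oxidative stress, mucus and repair programs. A piece of lung also carries circulating blood, and the muscular sleeves of pulmonary veins in rodents are made of heart muscle cells, so a library of whole tissue can hold transcripts of red cells, platelets and heart as well as of lung.

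The deposited values were whole read counts per gene. The oil vapor libraries held 4.22 to 6.09 M counts and the air libraries 3.60 to 6.13 M counts (M, mega). Mean totals were 5.29 ± 0.615 M in oil vapor lungs and 4.62 ± 0.944 M in air lungs (SD, n = 6 each; exact two-sided permutation p = 0.186 over 924 arrangements). Between 18495 and 19202 genes had at least 1 count in the oil vapor libraries and between 18410 and 19492 in the air libraries. Levels are given in CPM, counts divided by the library size in mega counts, on library sizes scaled by TMM, a method that equalises libraries over the bulk of their genes. A floor of 3 counts stood at 0.489 to 0.833 CPM, so values near or below 1 CPM rest on a few reads.

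Lung identity was clear in both groups. Sftpc, a surfactant protein of alveolar type 2 cells, lay at 5276, 5939 and 6557 CPM (lowest, median, highest) in oil vapor lungs and at 5504, 5928 and 6618 CPM in air lungs. The groups overlapped, with a log2 difference of 0.01 ± 0.06 (SE; here and below oil vapor over air). Its fellow surfactant gene Sftpb differed by -0.06 ± 0.06, the alveolar type 1 receptor gene Ager by -0.01 ± 0.07 and the club cell secretory gene Scgb1a1 by -0.06 ± 0.18. Foxj1, the master regulator of motile cilia, differed by 0.22 ± 0.23, and the endothelial adhesion gene Pecam1 by 0.15 ± 0.08. These 6 markers stood at 18 CPM or more in each of the 12 libraries and did not pass the test described below.

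Transcripts of other tissues were uneven among the animals. The summed level of 15 tested liver genes lay at 348, 366 and 381 CPM in oil vapor lungs and at 362.5, 411 and 1417 CPM in air lungs, the highest being air animal 17. For 10 ventricular and slow muscle genes the sums were 72.2, 95.0 and 136 CPM in oil vapor lungs, against 95.8, 294 and 912 CPM in air lungs. For 22 genes of erythroid cells they were 1763, 2813 and 3728 CPM in oil vapor lungs, against 3335, 5035 and 12698 CPM in air lungs, with air animal 23 highest. Platelet genes (15 tested) summed to 314, 406 and 455 CPM in oil vapor lungs and to 474, 597 and 907 CPM in air lungs, without overlap. Cardiac genes shared with pulmonary veins (18 tested) summed to 198, 721 and 1487 CPM in oil vapor lungs and to 323, 1176 and 2707 CPM in air lungs. Thus for erythroid cells, platelets, heart and liver alike the air group had the higher median and the highest single library.

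The libraries also held a pattern across exposure schedules. When the animals of the single schedule were set in order of their numbers beside those of the 16-day schedule at 28 days, several of these transcripts had like counts in animals of the same rank, although the 2 sets are labelled as different animals. Alas2, the first enzyme of heme synthesis in red cells, had raw counts of 1995, 1742, 2717, 460, 402 and 1546 in the oil vapor animals of the single schedule and 2098, 1933, 2975, 448, 557 and 1671 in those of the repeated schedule. In air animals its counts were 9492, 3203, 2796, 4577, 4025 and 12412 in the single schedule and 10458, 3424, 3170, 5054, 4402 and 13463 in the repeated one. The like order held for the slow and ventricular myosin Myh7 in air animals (13, 41, 941, 703, 235 and 251 counts in the single schedule, against 23, 57, 901, 810, 285 and 233) and for the liver gene Alb (3592, 183, 179, 151, 94 and 116, against 3873, 216, 242, 203, 94 and 131). It did not hold for the atrial and pulmonary vein gene Myl7 or for the lung gene Sftpc. Over the 12 pairs (points of 2 tables, sharing rank and group), the correlation of log2 raw counts exceeded 0.8 in 139 of 14820 genes. The log2 counts were centred within groups and not scaled for library size. Of the 139 genes, 117 were among the genes set apart below and 22 among the rest. The cause was not tested, and the pattern concerns the values of both schedules. Values of blood, heart and liver genes are therefore given for description in either schedule. Those of the repeated schedule are not separate evidence.

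**Figure D1:**
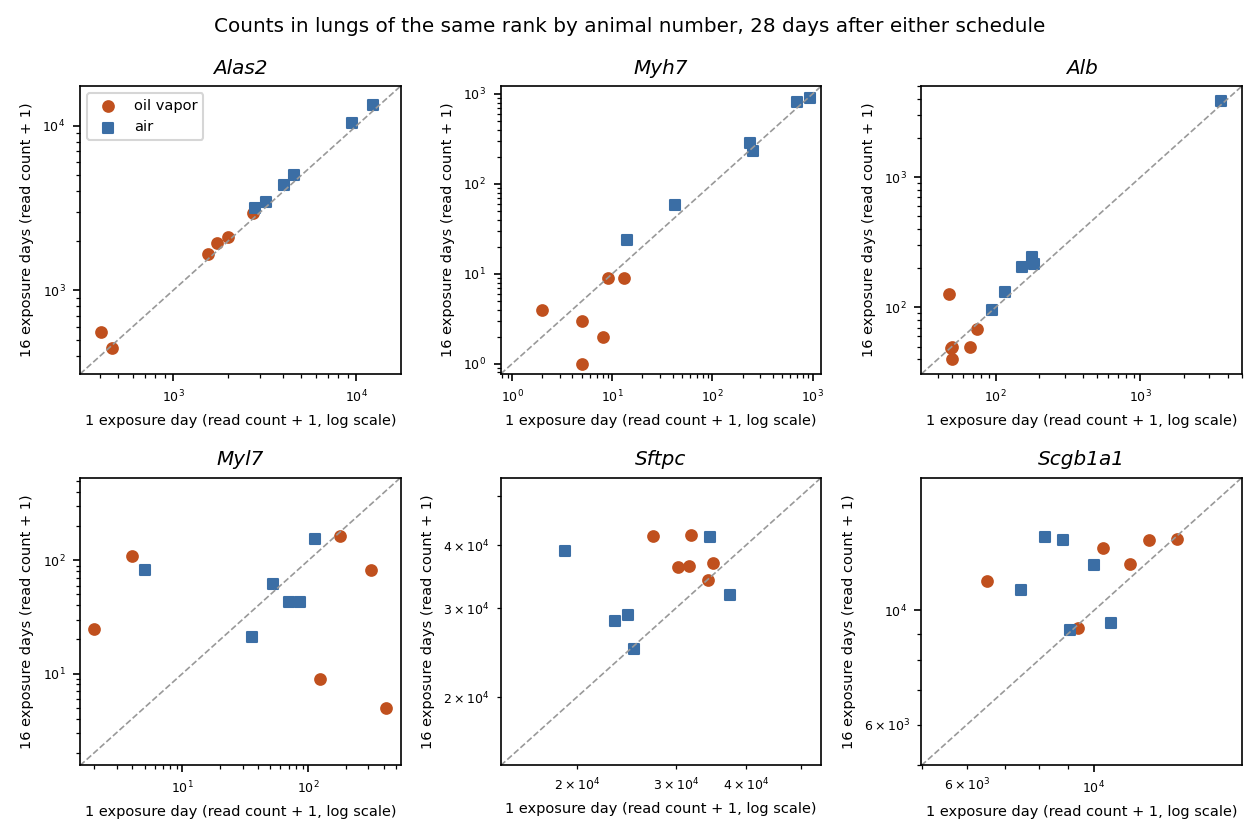
Raw read counts plus 1 of 6 genes 28 days after the last exposure, animals of the single schedule plotted against animals of the same rank in the repeated schedule (log axes, 1 point per pair, oil vapor as circles and air as squares, the dashed line marks equal counts). Alas2 lies along the line in both groups, from 402 to 12412 counts in the single schedule, whereas Sftpc does not order the animals in the same way.

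Because of this unevenness, genes were split by a rule whose correlations did not use the compared libraries. Its marker lists were chosen with earlier results of these data known, so the split is not independent of them. A gene was set apart if it stood on a list of markers of another tissue, or if its level followed the erythroid, ventricular, vein cardiac or liver score (Pearson r of at least 0.6, centred within groups) over the 24 libraries taken at 1 day. This set apart 2399 of 14820 tested genes: 1955 followed the erythroid score, 409 the ventricular, 205 the vein cardiac and 486 the liver score, with some following several. The remaining 12421 genes are called lung-intrinsic here, by this rule alone. The rule is broad, since it also set apart all 23 tested ribosomal protein genes and 15 of 19 T cell genes. Among the libraries behind its correlations, oil vapor animal 5 had an erythroid sum of 20379 CPM. The highest air library at 1 day after the single exposure had 9168 CPM. How far the correlations rest on animal 5 was not tested.

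Over all genes, no gene passed the test between oil vapor and air lungs. The quasi-likelihood test of edgeR, adjusted by Benjamini and Hochberg's method, called 0 of 14820 genes (0%) at an adjusted p under 0.05, and the smallest adjusted p was 0.288. At an unadjusted p under 0.05 there were 1158 genes (7.81%), 534 with higher values in oil vapor lungs (3.6%) and 624 with lower values (4.21%). DESeq2 called 24 genes and limma-voom with sample weights called 0. Of DESeq2's 24 genes, 20 were among those set apart, and 22 had lower values in oil vapor lungs. The difference in every gene named below did not pass the quasi-likelihood test, and its values are given as a description. In bulk tissue, fewer cells of a type and less RNA per cell cannot be told apart.

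The set-apart genes had more lower values than the other genes. Values were above 0 in 52.5% of all genes, in 33.5% of the genes set apart and in 56.1% of the lung-intrinsic genes. Among the 2399 genes set apart, 312 had lower values in oil vapor lungs at an unadjusted p under 0.05 (13%) and 32 had higher values (1.33%), and in 88 (3.67%) every oil vapor library lay below every air library, against 1 gene in the other direction (0.0417%). Either way, 14.3% of the genes set apart reached that p. Among the 12421 lung-intrinsic genes, 502 had higher values (4.04%) and 312 lower values (2.51%), together 6.55%, and the groups did not overlap in 23 genes in the upward direction (0.185%) and in 12 in the downward direction (0.0966%). The median log2 difference was -0.05 over the genes set apart, 0.02 over the lung-intrinsic genes and 0.01 over all genes. Set-apart genes made up 18.6 to 19.8% of counts in oil vapor libraries and 19.4 to 23.7% in air libraries. When the set-apart genes were left out before scaling, the median of the 12421 lung-intrinsic genes was 0.000577. Scaling on these genes alone brings their median near 0 by construction, and the source of their small shift upward was not tested. With other-tissue scores as covariates, 260 lung-intrinsic genes in place of 502 had higher values at an unadjusted p under 0.05.

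The 10 lung-intrinsic genes with the smallest p in the upward direction had differences from 0.27 to 0.61. Irf2bp2, a transcriptional corepressor partner of interferon regulatory factor 2, lay at 197, 225 and 232 CPM in oil vapor lungs and at 169, 179.7 and 193 CPM in air lungs, a log2 difference of 0.29 ± 0.06 (adjusted p = 0.288, edgeR). Every oil vapor lung stood above every air lung. Zhx3, a zinc finger and homeobox repressor, lay at 183, 194 and 227 CPM in oil vapor lungs and at 157, 161 and 176 CPM in air lungs (0.28 ± 0.07), again without overlap. Thap4, a THAP domain protein, differed by 0.31 ± 0.09 without overlap, and Pwwp2b, a chromatin reader, by 0.32 ± 0.08 with overlap.

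Ttll7, an enzyme that adds glutamate chains to tubulin, lay at 82.6, 89.4 and 94.5 CPM in oil vapor lungs and at 57.8, 73.6 and 79.2 CPM in air lungs, a difference of 0.30 ± 0.07 (adjusted p = 0.288, edgeR). The groups did not overlap, and the oil vapor lungs were the more even. DESeq2 called Irf2bp2 (adjusted p = 0.00858) and Ttll7 (adjusted p = 0.011), its only calls with higher values in oil vapor lungs. Ctdspl, a phosphatase that acts on the retinoblastoma protein, lay at 151, 158 and 169 CPM in oil vapor lungs and at 119.8, 131 and 145 CPM in air lungs (0.27 ± 0.07, no overlap). Oxnad1, a putative oxidoreductase, differed by 0.36 ± 0.09 without overlap.

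Cxcl14, a chemokine made by epithelial and stromal cells, lay at 31.3, 45.3 and 56.3 CPM in oil vapor lungs and at 28.4, 31.2 and 37.7 CPM in air lungs, a difference of 0.49 ± 0.13. The groups overlapped at their edges. Adap2, a GTPase-activating protein for Arf6, differed by 0.39 ± 0.10, with oil vapor animal 31 highest at 50.8 CPM. Shank2, a scaffold protein best known at synapses, had the largest difference of these 10 genes (0.61 ± 0.17), at 8.66, 13.4 and 15.8 CPM in oil vapor lungs and 5.55, 8.73 and 11.3 CPM in air lungs.

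The 10 lung-intrinsic genes with the smallest p among those with lower values in oil vapor lungs had differences from -1.58 to -0.18. Ndufa9, a subunit of respiratory complex I, lay at 23.8, 27.2 and 35.1 CPM in oil vapor lungs and at 31.7, 39 and 43.9 CPM in air lungs, a difference of -0.42 ± 0.10. Cpt2, which releases fatty acids from carnitine inside mitochondria, differed by -0.43 ± 0.11, and Scp2, the sterol carrier protein of peroxisomes, by -0.31 ± 0.08. Idh3a, a subunit of the citric acid cycle's isocitrate dehydrogenase, differed by -0.25 ± 0.07. In each of these 4 genes the groups overlapped. Of 20 nuclear-encoded respiratory chain genes, 16 had values below 0 and 5 reached an unadjusted p under 0.05 in that direction, against 4.21% of all genes. However, 11 of these 20 genes were set apart, among them Cox5a (-0.25 ± 0.08) and Atp5b (-0.27 ± 0.10), in both of which the groups did not overlap, and the part of blood and heart transcripts in these values was not tested.

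Nrn1, which encodes neuritin, a membrane-anchored protein known from neurite growth, had the largest downward difference of the 10 lung-intrinsic genes (-1.58 ± 0.34). It lay at 1.05, 1.51 and 2.18 CPM in oil vapor lungs and at 1.79, 4.83 and 8.05 CPM in air lungs, levels near the floor. DESeq2 called it (adjusted p = 0.0213). The cytokine gene Il1a, an alarm signal of epithelium and macrophages, lay at 13.6, 15.2 and 16.4 CPM in oil vapor lungs and at 16.8, 20.1 and 31.3 CPM in air lungs (-0.49 ± 0.13). Every oil vapor lung stood below every air lung, and air animal 19 stood apart at the top. Maea, part of a ubiquitin ligase, was even within each group, at 72.6, 73.5 and 74.9 CPM in oil vapor lungs and 77.9, 82.9 and 91.2 CPM in air lungs (-0.18 ± 0.05). Mapk6, an atypical MAP kinase, differed by -0.20 ± 0.05 and Dnajc17, a co-chaperone, by -0.50 ± 0.14, both without overlap, and the ubiquitin ligase adaptor Fbxo21 differed by -0.36 ± 0.09 with overlap.

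**Figure D2:**
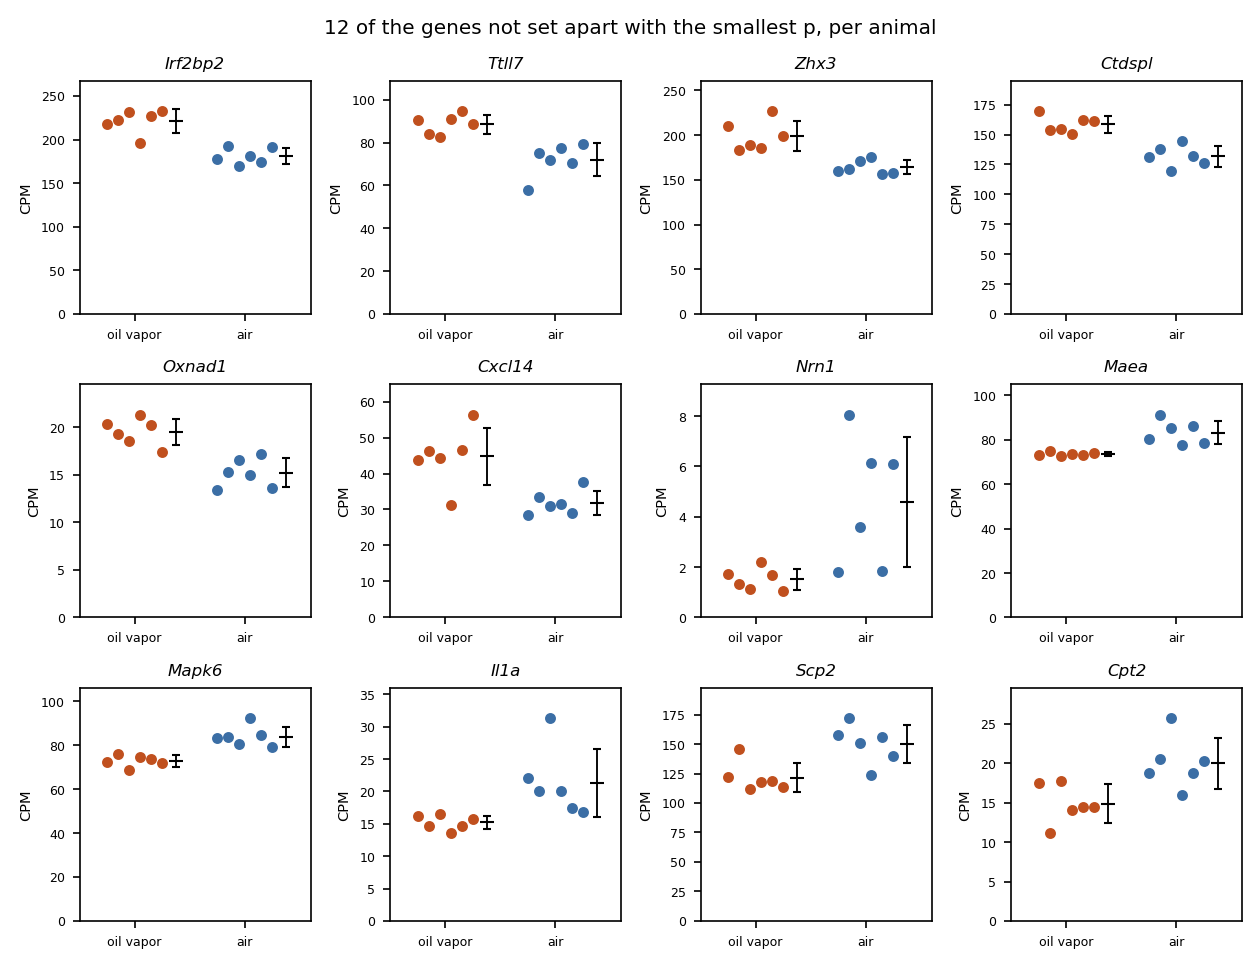
Levels in CPM of 12 lung-intrinsic genes in each animal, oil vapor lungs left and air lungs right (6 points per group, the bar beside them marks the mean and SD). Irf2bp2, Ttll7, Zhx3, Ctdspl and Oxnad1 show every oil vapor animal above every air animal, and Il1a, Maea and Mapk6 the opposite order.

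The genes set apart gave the largest differences of the whole comparison. The share of counts at the 2 genes whose symbols denote ribosomal RNA, also went with the groups, at 0.364, 0.441 and 0.784% in oil vapor libraries and at 0.573, 1.8 and 2.85% in air libraries. It was highest in air animals 19 and 20, which also held much ventricular RNA, and its part in the results was not tested. Of the 22 erythroid genes, all had values below 0 and 21 reached an unadjusted p under 0.05, with a median of -1.89 and no overlap in 8 (0.675% of all genes did not overlap in this direction). Alas2 lay at 83.7, 279.6 and 513 CPM in oil vapor lungs and at 614, 1054 and 3600.5 CPM in air lungs (-2.38 ± 0.82). Every oil vapor lung stood below every air lung. The beta globin gene Hbb, whose near-identical copies could share reads, lay at 407, 774 and 1066 CPM in oil vapor lungs and at 818, 1422 and 3758 CPM in air lungs (-1.14 ± 0.43). Globin RNA was therefore present in all lungs, with lower values in oil vapor lungs, and without air animal 23 the erythroid median was -1.40.

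Platelet genes behaved alike: 15 of 15 had values below 0, 8 reached an unadjusted p under 0.05 (4.21% of all genes did so in this direction) and 5 did not overlap (0.675% of all genes), with a median of -0.72. Gp9, part of the von Willebrand factor receptor, lay at 0.241, 1.06 and 2.65 CPM in oil vapor lungs and at 3.58, 5.57 and 13.3 CPM in air lungs. No oil vapor lung reached the lowest air lung. The platelet chemokine Ppbp differed by -2.40 ± 0.67, at or below 0.756 CPM in every oil vapor lung.

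Heart and liver transcripts were highest in some air animals. Myh7 lay at 0.166, 1.09 and 2.28 CPM in oil vapor lungs and at 2.12, 67.5 and 210.3 CPM in air lungs (-6.21 ± 1.33), and the ventricular light chain Myl3 at 0, 0.203 and 0.761 CPM in oil vapor lungs and 0.979, 30.9 and 158 CPM in air lungs. Both were at or near the floor in oil vapor lungs, so these fitted differences are no measure of size. Klhl31, a muscle gene, differed by -1.47 ± 0.34. The ventricular list had a median of -1.40, which was -0.57 without air animals 17, 19 and 20, and the vein cardiac list one of -0.99, which was -0.34 without them. Of the 18 vein cardiac genes 4 had values above 0, up to 1.40. Myl7 was one of these, with 122, 3, 312, 178, 1 and 415 raw counts in oil vapor lungs and 112, 4, 51, 69, 35 and 85 in air lungs, so it was highest in oil vapor animals and nearly absent in others of that group. Alb, the main plasma protein of liver, lay at 8.15, 9.10 and 15.9 CPM in oil vapor lungs and at 24.9, 34.7 and 586 CPM in air lungs, and the thyroid hormone carrier Ttr at 0, 0.170 and 0.481 CPM against 0.870, 2.59 and 29.2 CPM. The median of the 15 liver genes was -1.55, and -0.58 without air animal 17.

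Several immune genes followed the blood transcripts. The interferon-induced antiviral gene Rsad2 lay at 28.6, 86.9 and 150.2 CPM in oil vapor lungs and at 225, 404 and 962 CPM in air lungs (-2.48 ± 0.73), without overlap. Its level followed the erythroid score with r = 0.99 at 1 day, over libraries that include oil vapor animal 5. The lipoxygenase Alox15, also with r = 0.99, differed by -1.70 ± 0.61. The serpin gene Serpinb11 differed by -2.15 ± 0.47, at 0.499, 1.57 and 3.04 CPM in oil vapor lungs and 4.02, 8.20 and 10 CPM in air lungs. Laptm5, a lysosomal membrane protein of blood cells, differed by -0.26 ± 0.06 and Kcna3, a potassium channel of lymphocytes, by -0.52 ± 0.13. In these genes an effect of exposure and a smaller share of blood cells cannot be told apart.

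Markers of the lung's own cells lay near the background of all genes. Of 16 alveolar type 2 genes, 9 had values above 0 and 7 below, with a median of 0.01, and 1 reached an unadjusted p under 0.05: Cldn18, a tight junction protein of the alveolus, lay at 229.7, 292 and 409.5 CPM in oil vapor lungs and at 351, 394 and 472 CPM in air lungs (-0.37 ± 0.13). The fatty acid synthase Fasn, on the same list, differed by -0.18 ± 0.10. The medians were 0.00 over 13 alveolar type 1 genes, -0.03 over 10 club cell genes and 0.06 over 16 ciliated cell genes, beside 0.01 over all genes.

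For 19 endothelial genes the median was -0.03, with the VEGF receptor Kdr at -0.16 ± 0.07 and the apelin receptor Aplnr at -0.20 ± 0.10. For 15 fibroblast genes it was 0.11: the matrix proteoglycan Lum differed by -0.25 ± 0.11 and the mesenchymal homeobox gene Meox2 by -0.23 ± 0.11, whereas the receptor Pdgfra differed by 0.18 ± 0.09 and the proteoglycan Dcn by 0.30 ± 0.16. Collagen and elastic matrix genes had a median of 0.03, with 11 of 21 above 0, and smooth muscle and pericyte genes one of 0.03, with 8 of 14 above 0. None of these lists had more than 2 members at an unadjusted p under 0.05, where 7.81% of all genes stood. The lists were only counted, so a reduction or gain of an alveolar, airway or stromal cell type was not tested. Mucus and goblet cell genes are described next.

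**Figure D3:**
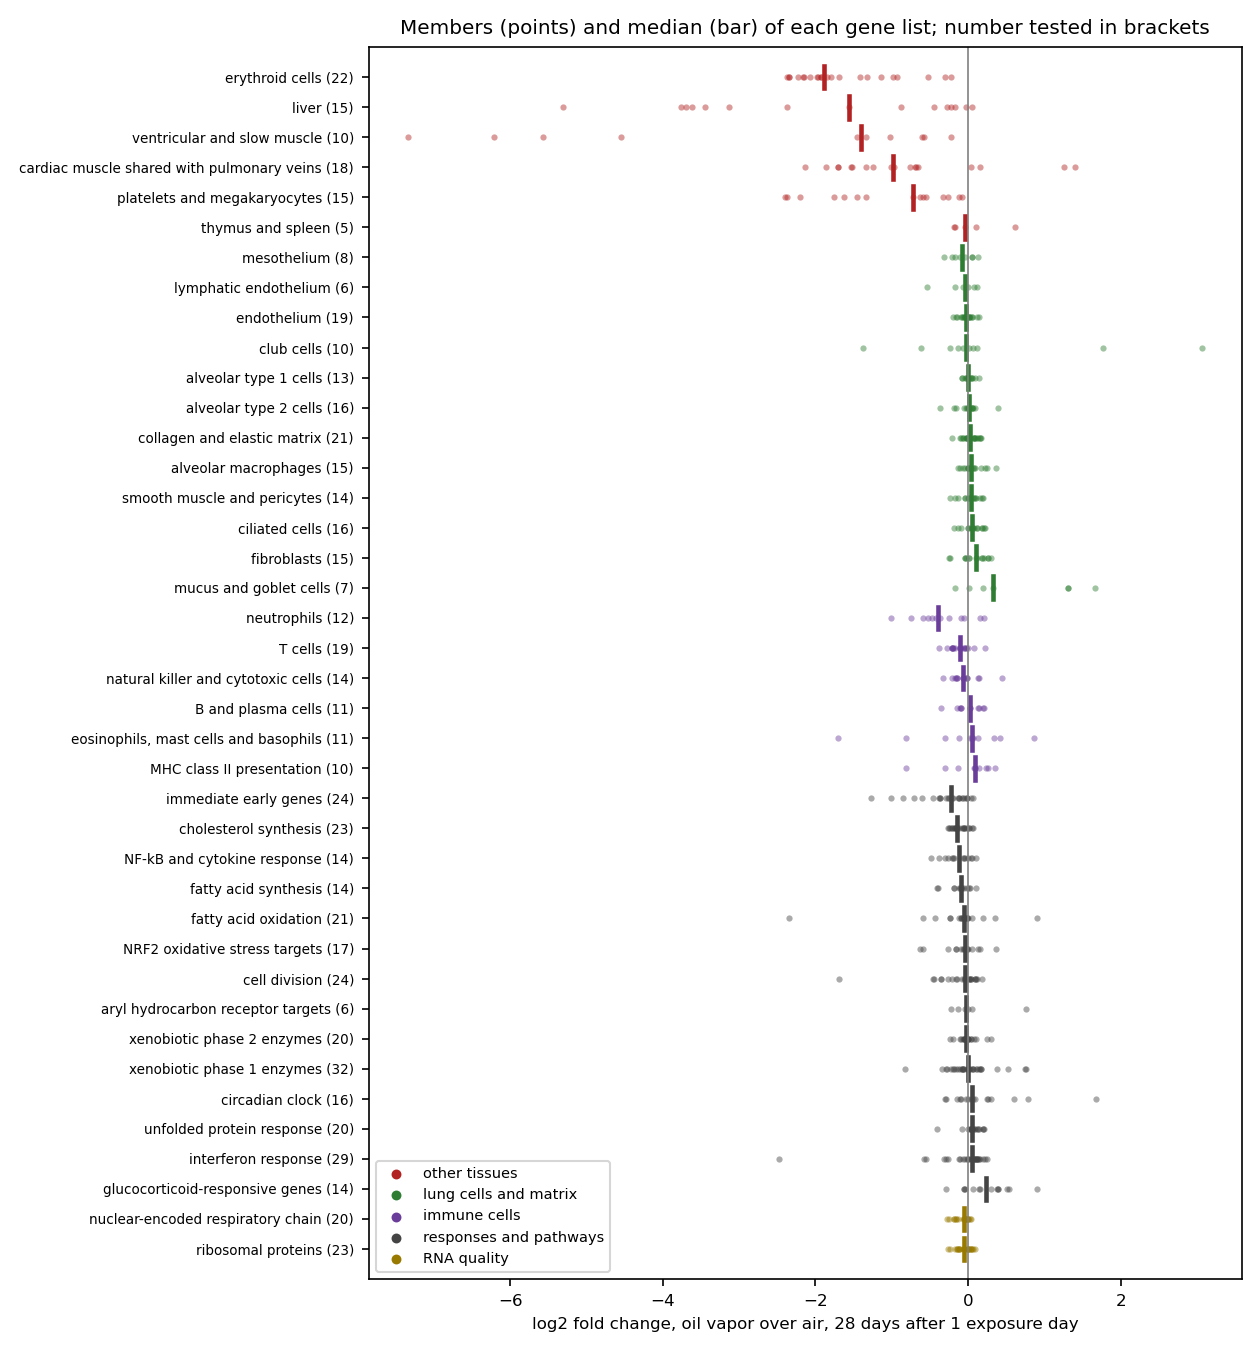
Log2 differences (oil vapor over air) of the tested members of each gene list, 1 point per gene, with the list's median as a bar. Erythroid, platelet, ventricular, vein cardiac and liver lists lie mostly below 0, with medians from -1.89 to -0.72, and the lung cell lists lie around 0.

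Mucus genes of the airway were high in 3 of the 6 oil vapor animals. Muc5b, the main gel-forming mucin of healthy airways, stood at 85.9, 18, 14, 118, 6.01 and 115 CPM in oil vapor animals 24, 27, 28, 29, 31 and 32, and at 16.2, 13.2, 20.8, 40.7, 39.5 and 16.2 CPM in air animals 17, 18, 19, 20, 22 and 23. Oil vapor animals 24, 29 and 32 were above every air animal, and animal 31 was below every one, so the groups overlapped (1.31 ± 0.62). Bpifa1, a secreted defence protein of the upper airway, stood at 23.4, 17.8 and 29.3 CPM in the same 3 animals, and at 0.192 to 3.87 CPM in air lungs (3.07 ± 1.08). The secretoglobin Scgb3a1 stood at 73.2, 76.4 and 87.8 CPM in them and at 1.63 to 31 CPM in air lungs (1.76 ± 0.90), and the goblet cell protein Clca1 differed by 1.66 ± 0.74. Bpifa1 and Scgb3a1 were counted on the club cell list and not on the mucus list. Of the 10 club cell genes 5 had values above 0 and 5 below (median -0.03), down to -1.38 for Retnla. Of 7 mucus and goblet cell genes, 6 had values above 0 and 2 reached an unadjusted p under 0.05, where 3.6% of all genes did so in that direction. Their sum lay at 46.4, 116 and 242 CPM in oil vapor lungs and at 55.6, 70.7 and 109 CPM in air lungs. Other airway markers were higher in the same 3 animals: the summed ciliated cells genes stood at 1023, 1286 and 1168 CPM in oil vapor animals 24, 29 and 32 and at 906, 863 and 830 CPM in animals 27, 28 and 31, and the summed club cells genes at 3039, 3506 and 3658 CPM against 2874, 2810 and 2539 CPM. In air lungs the ciliated sum ranged from 650 to 1160 CPM and the club sum from 2213 to 3946 CPM. The part of the amount of airway in each piece in these values was not tested. Without animal 32, whose labels disagree, the difference was 1.01 for Muc5b and 2.63 for Bpifa1.

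Immune cell markers were mixed. Of 11 B and plasma cell genes 6 had values above 0 (median 0.02), and 7 of 11 mast cell, basophil and eosinophil genes did (median 0.05), whereas neutrophil and T cell genes, most of them set apart, had mostly values below 0. Of 12 neutrophil genes, 8 of them set apart, 10 had values below 0 (median -0.40): the collagenase Mmp8 lay at 1.68, 4.00 and 7.75 CPM in oil vapor lungs and at 5.71, 9.71 and 12.2 CPM in air lungs (-1.0 ± 0.38), and the receptor Trem1 differed by -0.53 ± 0.23. Of 19 T cell genes, 16 had values below 0 (median -0.11). With scores of the other tissues as covariates these medians were 0.27 for neutrophils and 0.29 for T cells, so that their sign turned. The part of blood in the original values was not tested further. Alveolar macrophage genes had a median of 0.03 with 9 of 15 above 0. Among them the phagocytic receptor Mertk differed by 0.22 ± 0.10 and the lipid binding protein Fabp5 by 0.37 ± 0.18.

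Antigen presentation and inflammatory genes did not stand out. Of 10 MHC class II genes, 7 had values above 0 (median 0.09). RT1-DOb, a regulator of peptide loading in B cells with related copies that could share reads, lay at 9.32, 12.5 and 15.5 CPM in oil vapor lungs and at 8.88, 9.60 and 10.7 CPM in air lungs (0.35 ± 0.14), and the invariant chain Cd74 differed by 0.09 ± 0.06. Interferon response genes were split, 17 above and 12 below 0 (median 0.05), with Ifi44 at 0.20 ± 0.10 and only Rsad2 at an unadjusted p under 0.05. NF-kB and cytokine genes had a median of -0.12 with 10 of 14 below 0, and here only Il1a reached an unadjusted p under 0.05. Retnla, a secreted protein of type 2 immunity counted on the club cell list, lay at 3.66, 11.4 and 30.0 CPM in oil vapor lungs and at 18.8, 27.1 and 56.2 CPM in air lungs (-1.38 ± 0.63).

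Genes of the circadian clock varied more among the oil vapor animals than among the air animals. In the clock, the activators Arntl and Npas2 act through E-boxes, and the nuclear receptors Nr1d1 and Nr1d2 repress Arntl and Npas2 through their own elements. The promoters of 4 clock genes are shown to set these motifs beside the values, and were taken from those in which a search found a motif. They are the 250 bases before the start in RefSeq's GRCr8 annotation, 5′ to 3′ on the gene's strand, and capitals mark the E-box CACGTG (Nr1d1 and Tef) or the nuclear receptor element AGGTCA (Nr1d2 and Arntl). They lie at chr10:84229455-84229704 on the minus strand (Nr1d1, the second listed start), chr7:115206577-115206826 on the plus strand (Tef), chr15:9954784-9955033 on the plus strand (Nr1d2) and chr1:176766078-176766327 on the plus strand (Arntl, listed as Bmal1).
Nr1d1: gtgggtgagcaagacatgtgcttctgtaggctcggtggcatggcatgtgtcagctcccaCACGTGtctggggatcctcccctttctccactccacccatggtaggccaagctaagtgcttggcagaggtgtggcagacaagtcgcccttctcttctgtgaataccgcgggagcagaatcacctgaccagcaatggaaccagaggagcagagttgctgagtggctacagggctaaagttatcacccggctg
Tef: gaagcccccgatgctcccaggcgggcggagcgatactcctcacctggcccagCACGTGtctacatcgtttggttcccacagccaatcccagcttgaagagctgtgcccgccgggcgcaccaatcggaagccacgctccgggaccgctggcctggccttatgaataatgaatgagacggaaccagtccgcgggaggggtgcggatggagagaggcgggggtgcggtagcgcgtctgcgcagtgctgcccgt
Nr1d2: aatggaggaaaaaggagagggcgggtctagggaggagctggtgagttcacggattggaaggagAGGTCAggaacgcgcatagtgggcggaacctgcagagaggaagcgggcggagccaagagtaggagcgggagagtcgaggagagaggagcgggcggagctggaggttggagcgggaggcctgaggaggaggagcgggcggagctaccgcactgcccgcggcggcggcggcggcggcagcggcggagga
Arntl: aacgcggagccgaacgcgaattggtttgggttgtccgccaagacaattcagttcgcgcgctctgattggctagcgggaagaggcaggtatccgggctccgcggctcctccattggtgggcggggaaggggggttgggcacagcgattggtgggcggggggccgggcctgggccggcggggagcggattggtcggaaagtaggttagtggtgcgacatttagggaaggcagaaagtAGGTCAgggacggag
Both strands were searched, and CACGTG reads the same on both. Of the 16 tested clock genes 15 had a promoter entry, with 17 entries in all because 2 genes had 2 starts. CACGTG was found in 5 of the 17 entries, against 5.59% of 33469 entries of that length, and AGGTCA in 2 of the 17, against 14.1%. Ciart, Bhlhe40 and Bhlhe41 also held CACGTG, and their sequences and values are not given here. The 2 E-box genes shown therefore do not stand for all 5. The first listed start of Nr1d1 and the entry of Npas2 held neither motif, and AGGTCA stood before both Nr1d2 and Arntl, whose values lay on opposite sides of 0. A match is a description of these letters and not a measured binding site.

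Nr1d1 stood at 22.4, 2.50, 11.7, 52.4, 34.9 and 36.3 CPM in oil vapor animals 24, 27, 28, 29, 31 and 32, and at 5.22, 6.71, 4.92, 5.46, 11.7 and 18 CPM in air animals 17, 18, 19, 20, 22 and 23 (1.68 ± 0.55). Oil vapor animals 24, 29, 31 and 32 were above every air animal, and animal 27 was below every one. Nr1d2 lay at 30.3, 86.8 and 111 CPM in oil vapor lungs and at 38.7, 41.2 and 56.6 CPM in air lungs (0.79 ± 0.25), and the repressor Per3 at 25.1, 41.0 and 59.3 CPM in oil vapor lungs and 25.5, 27.8 and 31 CPM in air lungs (0.61 ± 0.19). In both, the same animal 27 was lowest of the 12. Tef, a PAR leucine zipper factor downstream of the clock, differed by 0.25 ± 0.08.

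The activators Npas2 and Arntl, named with their values in view, had values on the other side. The value of Clock, also tested on this list, is not given here. Npas2 lay at 37.1, 42.7 and 58.2 CPM in oil vapor lungs and at 48.3, 57.4 and 60.6 CPM in air lungs (-0.30 ± 0.10), Arntl differed by -0.14 ± 0.07 and the repressor Cry1 by -0.29 ± 0.16. The clock output gene Dbp differed by 0.25 ± 0.19. Of the 16 clock genes, 10 had values above 0 and 6 below, with a median of 0.05 beside 0.01 over all genes. An unadjusted p under 0.05 was reached by 4 with higher and 1 with lower values in oil vapor lungs, beside 3.6% and 4.21% of all genes. The hour at which each animal was killed was not given in the sources used here, and an effect of that hour and one of the exposure cannot be told apart.

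**Figure D4:**
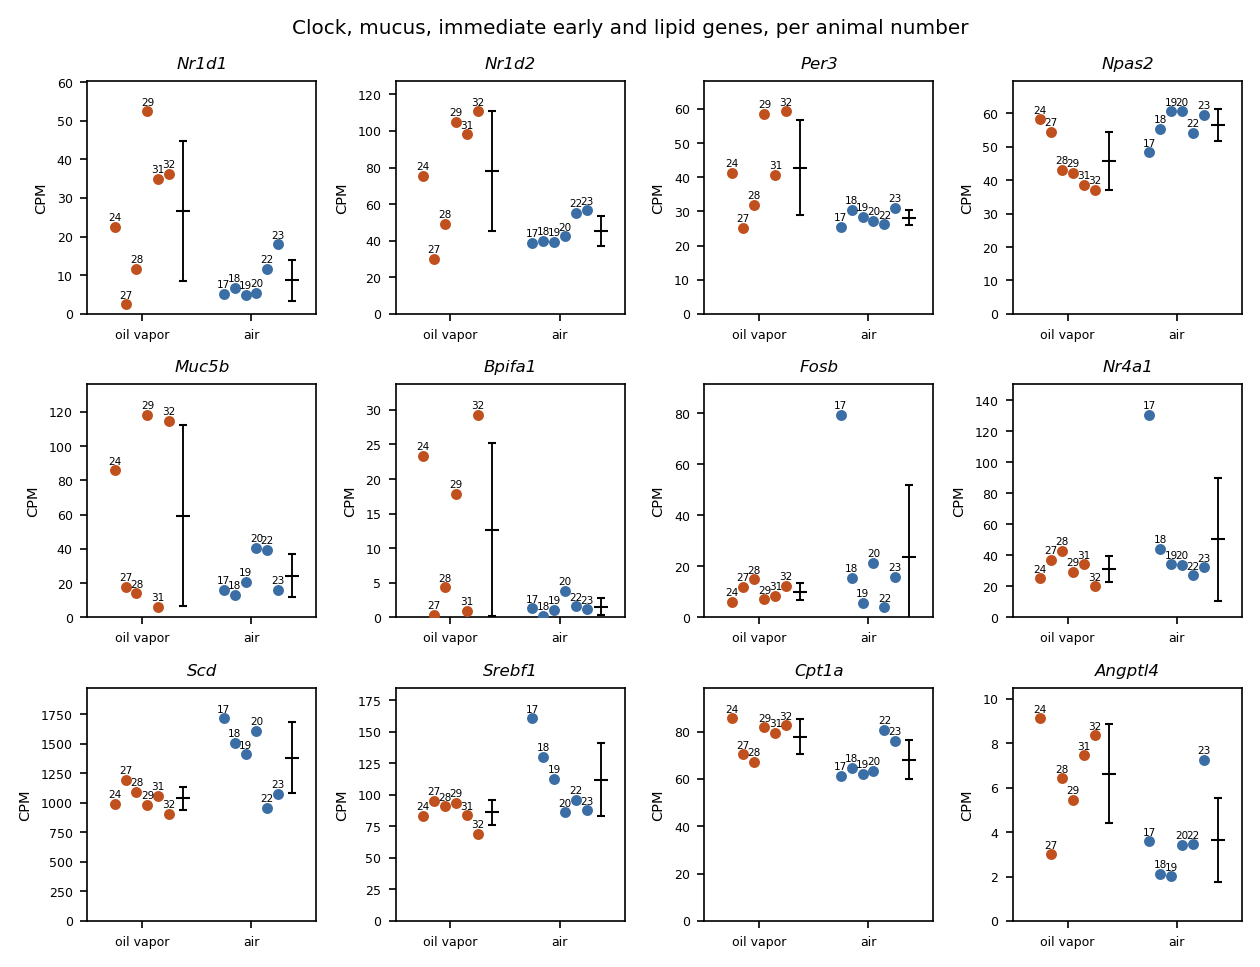
Levels in CPM in each animal of clock, mucus, immediate early and lipid genes, oil vapor lungs left and air lungs right (6 points per group with the animal's number, the bar beside them marks the mean and SD). For Muc5b and Nr1d1 the oil vapor animals spread from below to far above the air animals, and Fosb and Nr4a1 are highest in air animal 17.

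Immediate early genes, which respond within minutes to handling and stress, had 22 of 24 values below 0 (median -0.23). Of these, 1 was at an unadjusted p under 0.05, near the share of all genes in this direction (4.21%). The lower values rested on air animal 17: Egr1 lay at 8.75, 14.6 and 19 CPM in oil vapor lungs and at 9.80, 20.6 and 80.9 CPM in air lungs, and Nr4a1, Fosb and Fos were likewise highest in animal 17. Without that animal 12 of 24 genes had values below 0 and the median was 0.01. The lower values of this list were thus those of oil vapor lungs against 1 air library.

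Lipid synthesis genes mostly had values below 0, by small amounts. Scd, the desaturase that makes monounsaturated fatty acids for surfactant, lay at 909, 1026 and 1195 CPM in oil vapor lungs and at 961, 1460.3 and 1717 CPM in air lungs (-0.41 ± 0.12, adjusted p = 0.426, edgeR). Most oil vapor lungs were below most air lungs, with overlap at the low end of the air group. Srebf1, the transcription factor of fatty acid synthesis, lay at 69.2, 87.3 and 95.1 CPM in oil vapor lungs and at 86, 104 and 161 CPM in air lungs (-0.39 ± 0.12). Of 14 fatty acid synthesis genes 11 had values below 0, 3 of them at an unadjusted p under 0.05 (median -0.10), and of 23 cholesterol synthesis genes 19 had values below 0, 1 of them at an unadjusted p under 0.05 (median -0.14). In this direction 4.21% of all genes reached that p, and 1 of 23 genes is near that share. Sqle, which forms squalene epoxide, differed by -0.24 ± 0.11 and Fdft1, which forms squalene, by -0.17 ± 0.09. Without air animals 17, 19 and 20 the medians were -0.03 for fatty acid synthesis and -0.04 for cholesterol synthesis.

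Genes of fatty acid use were mixed. Cpt1a, the gate of mitochondrial fatty acid uptake, lay at 67.1, 80.5 and 85.6 CPM in oil vapor lungs and at 61.3, 64.2 and 80.8 CPM in air lungs (0.20 ± 0.07), opposite to Cpt2. Angptl4, a secreted inhibitor of lipoprotein lipase, lay at 2.99, 6.94 and 9.13 CPM in oil vapor lungs and at 2.01, 3.43 and 7.25 CPM in air lungs (0.90 ± 0.28). The heart fatty acid binding protein Fabp3 differed by -2.35 ± 0.79 but followed the ventricular score (r = 0.97). Of 21 oxidation genes 5 had values above 0 and 16 below.

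Xenobiotic enzymes showed no common shift. Of 32 phase 1 genes 16 lay above and 16 below 0, and of 20 phase 2 genes 8 lay above and 12 below. Por, the electron donor of cytochromes P450, differed by 0.16 ± 0.08 and the sulfotransferase Sult1a1 by 0.30 ± 0.11. Cyp1a1, the classic target of the aryl hydrocarbon receptor, differed by 0.76 ± 0.41, at 3.21, 10.2 and 16.6 CPM in oil vapor lungs and 2.28, 6.06 and 9.78 CPM in air lungs, while 4 of the 6 genes on its receptor's list had values below 0.

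The summed level of 17 NRF2 oxidative stress genes lay at 1536, 1626 and 1736 CPM in oil vapor lungs and at 1818, 1954 and 2662 CPM in air lungs, without overlap. Of these genes 13 had values below 0, 3 of them at an unadjusted p under 0.05 (4.21% of all genes in this direction), and 7 were set apart. They included ferritin heavy chain Fth1 (-0.59 ± 0.23, no overlap), which was set apart, and thioredoxin Txn1 (-0.15 ± 0.06). Fth1 made up much of the sum, at 678, 783 and 926 CPM in oil vapor lungs and at 953, 1099 and 1772 CPM in air lungs. Of 20 unfolded protein response genes, 17 had values above 0 and 3 reached an unadjusted p under 0.05 (3.6% of all genes did so in this direction), with a median of 0.05: the membrane protein Herpud1 differed by 0.20 ± 0.08, the chaperone Calr by 0.14 ± 0.06 and the secreted factor Manf by 0.21 ± 0.09. Of 14 glucocorticoid-responsive genes, 10 had values above 0 and 3 reached an unadjusted p under 0.05 (again beside 3.6% of all genes), with a median of 0.23 beside 0.01 over all genes, and Klf9 differed by 0.39 ± 0.16. Angptl4 and Sult1a1, described above with other lists, are also on this list, so it is not a separate set of genes. Of 24 cell division genes, 10 had values above and 14 below 0, with a median of -0.04 and a lowest value of -1.69. With lower values, 4 of them reached an unadjusted p under 0.05 (4.21% of all genes in this direction). The 8 that were set apart included the mitotic kinase Cdk1 (-0.44 ± 0.18) and the spindle protein Tpx2 (-0.45 ± 0.19).

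Whether these differences were particular to the late time was tested by an interaction, the oil vapor difference at 28 days minus that at 1 day after the same exposure. edgeR's quasi-likelihood test called 0 of 14820 genes, and 1107 had an unadjusted p under 0.05 (7.47%), while DESeq2 called 21. The smallest p belonged to liver genes: Ttr (-8.06 ± 1.55, adjusted p = 0.294), Pzp, Alb, Cps1 and Apob had differences of -5.31, -4.11, -3.62, -3.76 and -3.52 at 28 days and of 2.75, 2.38, 2.58, 2.23 and 2.55 at 1 day. These 5 genes thus had higher values in the oil vapor group at 1 day and lower ones at 28 days, and neither passed the test. At 1 day the liver sum was 630, 840 and 748 CPM in oil vapor animals 5, 7 and 16. It was 347, 382 and 371 CPM in animals 6, 13 and 14, and 318 to 386 CPM in air lungs. At 28 days air animal 17 was far highest (1417 CPM). Ttr was near the floor in oil vapor lungs at 28 days, so its fitted difference is no measure of size.

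The mucus list had a median of -0.91 at 1 day and of 0.32 at 28 days, and no interaction in this paragraph passed edgeR's test. At 1 day the sum of the mucus genes lay at 43.9 to 85.3 CPM in oil vapor lungs and at 92.5 to 298 CPM in air lungs. Muc5b differed by -2.26 at 1 day and by 1.31 at 28 days, an interaction of 3.57 ± 0.89 (adjusted p = 0.38, edgeR), and Bpifa1 by -2.26 and 3.07, an interaction of 5.33 ± 1.44 (adjusted p = 0.437). Other airway cell lists were ordered alike, with medians of -0.49 at 1 day and 0.06 at 28 days for ciliated cells and of -0.35 and -0.03 for club cells. The ciliated sum at 1 day averaged 813 ± 118 CPM in oil vapor lungs and 1005 ± 93.7 CPM in air lungs (SD, n = 6 each). Shank2 differed by -0.33 at 1 day and by 0.61 at 28 days (interaction 0.94 ± 0.24, adjusted p = 0.359, edgeR). Irf2bp2 and Ttll7 were at -0.01 and 0.03 at 1 day, and Ndufa9 was at -0.36 at 1 day and -0.42 at 28 days.

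Against the repeated schedule, also 28 days after the last exposure, 0 of 15322 genes differed in their oil vapor effect by edgeR (777 at an unadjusted p under 0.05, 5.07%; smallest adjusted p = 0.58) and 0 by DESeq2. The genes with the smallest p were Fbxo21, at -0.36 after 1 exposure day and 0.20 after 16 (interaction -0.56 ± 0.13), the ataxin-7-like Atxn7l2 (-0.77 ± 0.19), Kcna3 (-0.86 ± 0.21), the carrier membrane protein Scamp3 (-1.09 ± 0.27) and the sodium channel subunit Scn3b (-0.88 ± 0.22). Of the lung-intrinsic genes described above, Irf2bp2 was at 0.04, Ttll7 at -0.03, Zhx3 at 0.03 and Il1a at 0.03 after the repeated schedule, whereas Pwwp2b and Thap4 were at 0.22 and Dnajc17 at -0.24. These genes were chosen for their values at 28 days after the single exposure, so smaller values in the other comparisons are a description only. Blood and heart genes had values below 0 in both schedules, with Alas2 at -2.38 after the single exposure and -2.10 after the repeated one. The list medians were -1.89 and -1.70 for erythroid cells, -0.72 and -1.15 for platelets, -1.40 and -2.82 for ventricular and slow muscle, and -0.99 and -2.19 for the vein cardiac genes, in the same order. The like counts described above apply here.

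**Figure D5:**
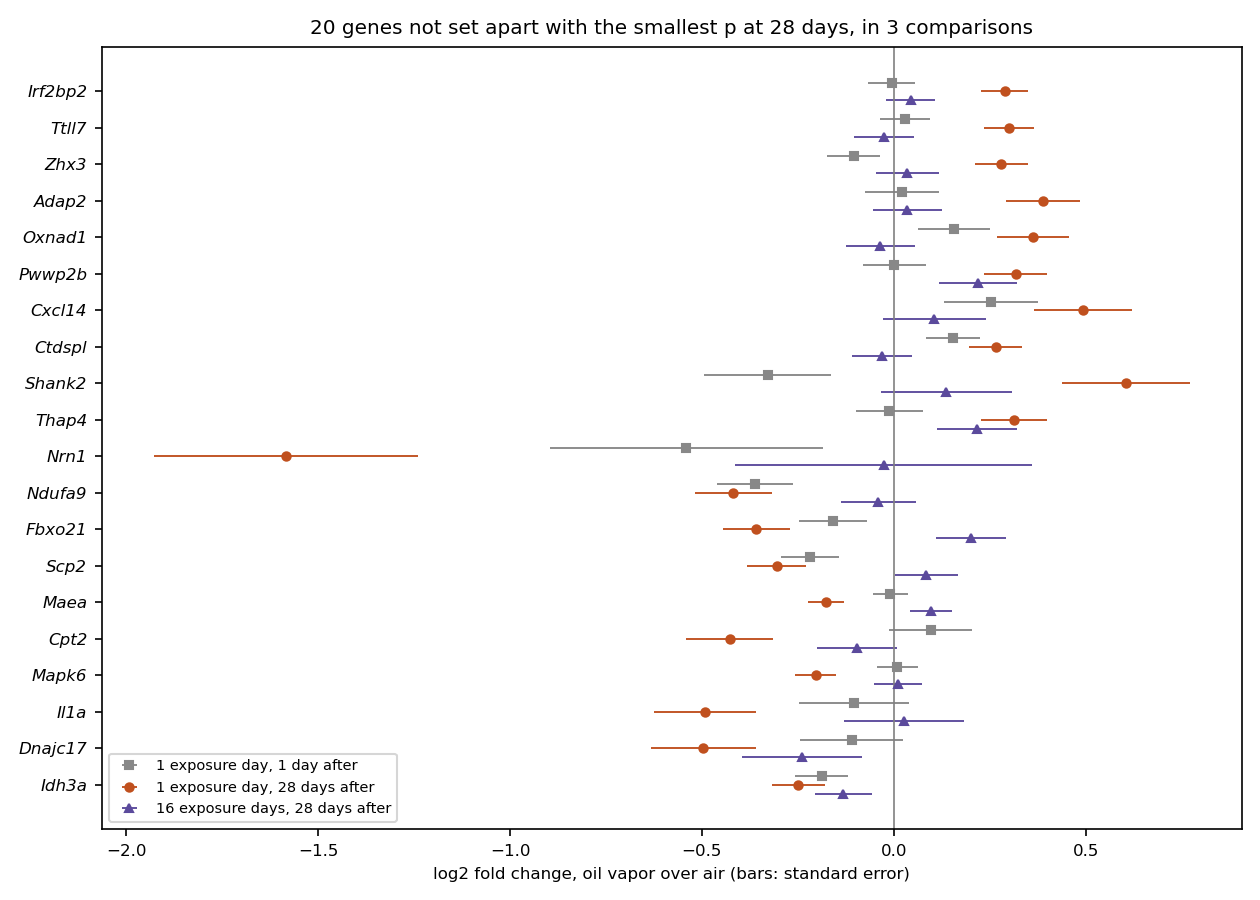
Log2 differences (oil vapor over air) of the 20 lung-intrinsic genes with the smallest p, at 1 day and at 28 days after the single exposure and at 28 days after 16 exposure days, with error bars of 1 SE. Irf2bp2 and Ttll7 lie away from 0 at 28 days after the single exposure and near 0 in the other comparisons, and Ndufa9 lies below 0 at both times after the single exposure.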

How the data were processed

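Per the labels' protocols, total RNA of a piece of lung from each rat was extracted with a miRNeasy kit, depleted of ribosomal RNA and made into stranded TruSeq libraries with 12 cycles of PCR, without molecular identifiers, so floors of 3 counts cover counting error only. The submitters' processing notes name HTSeq 0.6.1, HISAT2 2.1.0, Trimmomatic 0.35, bcl2fastq 2.19, SAMtools 1.8 and the build Rnor_6.0, but neither an annotation nor a strand setting for counting. The deposited values are raw read counts per gene, made by the authors, for 30045 genes, with no normalization. Groups were taken from the labels. Nothing says how the animals were assigned, and p-values measure the spread between these animals.

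Counts of the 24 libraries of the single-exposure table were fitted with edgeR 4.0.16 in R 4.3.3 (TMM, filterByExpr, robust quasi-likelihood fit over 4 group means, two-sided), with Benjamini-Hochberg adjustment over 14820 genes. Both interactions used the same test, the one between schedules in a fit of all 48 libraries. SE is the size of the log2 difference divided by the square root of F. Alternatives used DESeq2 1.42.0, limma 3.58.1 and sva 3.50.0. The text names the 8 genes with the smallest p in each direction over all genes and the 10 among the lung-intrinsic genes (mean of at least 1 CPM), list members with the smallest p, label markers and the 5 genes with the smallest p of each interaction. The members and lists were chosen with earlier results of these data known, so lists were only counted and given no test. Npas2, Arntl, Cry1, Dbp, Hbb, Fos and Myl7 and the setting without air animals 17, 19 and 20 were added with their values in view. The test was tried on simulated data before use. No 2 libraries of a group agreed within sampling noise. A promoter was matched by symbol to RefSeq's GRCr8 table. Some results are not reported here.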

Additional observations from a re-analysis of the deposited data

Results flagged for a closer look

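Each group of 6 libraries was searched for a library whose gap to its nearest neighbour was large for the group's range (Dixon's criterion), in the named genes and in 11 list sums. Of 226 groups searched, 29 had such a library. The criterion gives about 1 in 20 by chance for independent, normally spread values. Many items here shared the same animal, so the count is not set against that rate. None of 200 differences between oil vapor effects at 2 times or schedules stood out.

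Air animal 17 stood apart in liver genes, with 586 CPM of Alb (next air animal 40), 29.2 CPM of Ttr, 50.6 CPM of Pzp, 22.4 CPM of Cps1, 86.1 CPM of Apob and a liver sum of 1417 CPM (next 425). It also stood apart in immediate early genes, with 80.9 CPM of Egr1, 79.3 CPM of Fosb, 131 CPM of Nr4a1, 261 CPM of Fos and a sum of 3638 CPM (next 2171).

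Air animal 23 stood apart in red cell genes, with 3600.5 CPM of Alas2 (next 1549), 3758 CPM of Hbb, 11.6 CPM of the erythroid membrane gene Rhag and an erythroid sum of 12698 CPM (next 6101). It was also highest for Gp9 (13.3 CPM), Fth1 (1772 CPM), Calr (669 CPM), Manf (70.8 CPM) and Angptl4 (7.25 CPM).

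Other libraries stood apart in single results. Oil vapor animal 31 had 50.8 CPM of Adap2, oil vapor animal 27 had 146 CPM of Scp2 and a collagen and elastic matrix sum of 14508 CPM, and oil vapor animal 29 had 30.0 CPM of Retnla. Air animal 19 had 31.3 CPM of Il1a and 187 CPM of Dcn, air animal 20 was lowest for Thap4 (13.2 CPM) and Dnajc17 (7.28 CPM), and the alveolar type 1 sum was highest in air animal 18 (9391 CPM).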

How the results depend on the processing

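The count of genes called between oil vapor and air lungs stayed at 0 with RLE size factors, without a filter, with limma-voom, with 12 or 48 libraries, with other-tissue scores or 1 surrogate variable as covariates, with other-tissue genes left out, without air animals 17, 19 and 20, and without each animal in turn (0 to 0). DESeq2 called 24 genes, and 21 for the difference between times, and the cause was not tested. With all 36 libraries outside the comparison, the rule set apart 1457 genes in place of 2399. With other-tissue scores as covariates 260 lung-intrinsic genes in place of 502 had higher values at an unadjusted p under 0.05. By construction these scores took up the lists they were made from, leaving medians of 0.01 for erythroid and -0.02 for liver genes. The vein cardiac median, whose score was not a covariate, was then 1.28. The scores turned the sign of Pecam1 (-0.0116), Fabp5 (-0.23), Fth1 (0.0833), Fosb (0.92), Nr4a1 (0.0373), Fabp3 (0.71), Atp5b (0.0892), Hbb (0.11) and Fos (0.60). Without air animals 17, 19 and 20 the sign turned for Foxj1 (-0.0326), Sftpc (-0.0276) and Fos (0.0222). Values at or near 0 also turned for Sftpc: -0.00785 by limma-voom, -0.0076 with scores, -0.0097 with a surrogate variable, -0.0057 with other-tissue genes left out and -0.0176 to 0.0441 without 1 animal. Without 1 animal Ager ranged from -0.0763 to 0.033 and Scgb1a1 from -0.163 to 0.0424. No other named gene turned its sign in any setting tried. No paired analysis was possible because each animal's number occurs in 1 group only. With 3.60 to 6.13 M counts a library, genes near 1 CPM rest on a few reads.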
